A study of Mus musculus with 6 samples.

Results

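Tyrp1, Slc24a5, Hps3, Mlph, Mreg and Bloc1s6 are genes of pigment synthesis and of the melanosome, the lysosome-related organelle in which melanocytes make and carry melanin. They were taken by name from the deposited table, which left 6 of 7660 genes with a value, each read by 1 transcript cluster (the array's unit for a transcript). The samples were Melan-a cells, which are immortal pigmented melanocytes grown from C57BL/6 mouse skin. One group received siDicer, an siRNA that targets Dicer, and the other siScr, its control, with 3 arrays each. Per the labels, all cells of both groups were female, grew with 200 nM of the phorbol ester TPA and received 50 pmol of siRNA with a lipid and a magnetic reagent. Each replicate number stood for one cell passage shared by both groups (replicates 1, 2 and 3 were passages 47, 54 and 56), so each passage had 1 siDicer and 1 siScr array. The titles place sampling at 48 h after transfection, whereas the treatment protocol describes lysis 24 h after a medium change made at 6 h. Melan-a is a single line, so the samples describe that line under TPA. The design text speaks of biological replicates, but it does not say whether the passages came from separate thaws. The p-values measure the spread between these samples. Since each passage is 1 replicate number, passage cannot be told apart from anything else that differed between the replicate numbers. P-values for passages rest on how far the siDicer and siScr arrays followed the same passage pattern, with no repeat of a passage within a group.

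Melanin is made inside melanosomes from tyrosine by tyrosinase and its relatives, and ion exchangers affect the conditions in which these enzymes act. Their delivery from endosomes depends on protein complexes named BLOC, whose loss causes forms of Hermansky-Pudlak syndrome with pale coats in mice. Finished melanosomes are held at the cell periphery by the small GTPase Rab27a, the linker melanophilin and the motor myosin Va. Dicer cuts microRNA precursors into mature microRNAs, and Mitf is the transcription factor best known for binding E-box motifs, among them CACGTG and CATGTG, in promoters of pigment genes.

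Of the 6 genes 5 matched an entry in the RefSeq promoter table and Bloc1s6 did not. The sequences of all 5 with an entry are shown, whatever their signal. Each is the 100 bases just before the annotated start of transcription, from RefSeq on GRCm38.p6, written in the direction of the gene, with matches to the E-box letters CACGTG, which read the same on both strands, or to CATGTG on either strand in capitals.
Tyrp1 (chr4:80834113-80834212, plus strand): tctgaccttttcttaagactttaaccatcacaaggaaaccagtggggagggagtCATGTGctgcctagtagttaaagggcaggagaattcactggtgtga
Slc24a5 (chr2:125068027-125068126, plus strand): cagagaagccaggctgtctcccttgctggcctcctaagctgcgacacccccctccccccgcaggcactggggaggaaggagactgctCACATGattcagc
Hps3 (chr3:20035311-20035410, minus strand): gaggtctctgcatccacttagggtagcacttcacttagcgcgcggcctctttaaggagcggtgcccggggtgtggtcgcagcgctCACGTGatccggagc
Mlph (chr1:90915000-90915099, plus strand): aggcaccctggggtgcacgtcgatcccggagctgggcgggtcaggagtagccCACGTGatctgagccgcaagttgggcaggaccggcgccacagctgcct
Mreg (chr1:72212315-72212414, minus strand): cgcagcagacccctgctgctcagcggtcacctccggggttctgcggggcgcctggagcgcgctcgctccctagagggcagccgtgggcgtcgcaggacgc
Tyrp1 and Slc24a5 each held 1 match to CATGTG, starting 46 and 13 bases before the start of transcription, and that of Slc24a5 lay on the opposite strand. Hps3 and Mlph each held 1 match to CACGTG, starting 15 and 48 bases before it. Mreg, whose first of 2 listed starts is shown, held neither motif in this window or in the 300 bases listed for it. Over 32851 promoters of the same table, 3.17% held CACGTG, 4.59% held CATGTG and 7.63% held at least 1 of them in the same 100 bases. A match describes letters and is not evidence of binding.

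**Figure D1:**
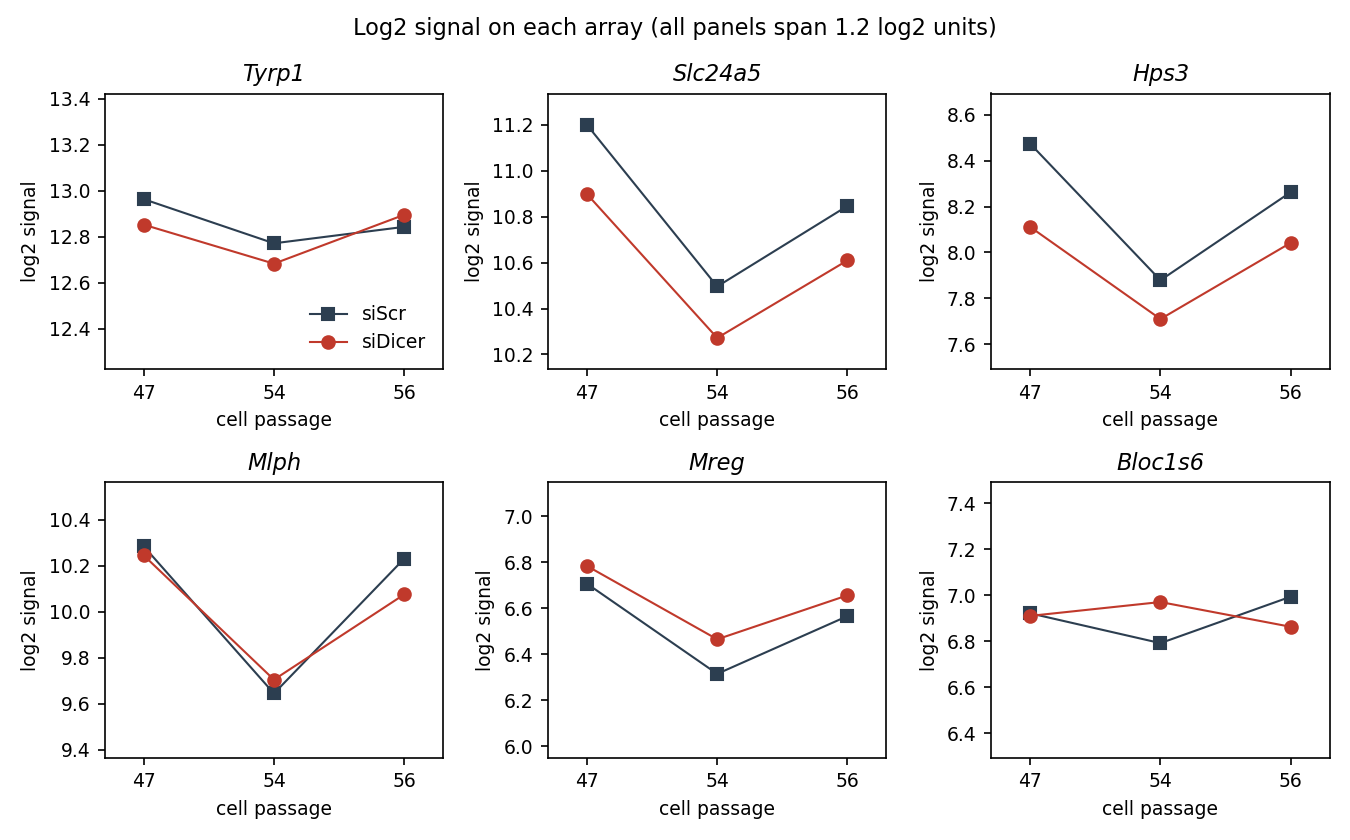
Log2 signal (vertical axis) of the 6 genes on each of the 6 arrays, by cell passage (horizontal axis), with squares for siScr and circles for siDicer, lines joining arrays of one group and the same span of log2 units in all panels. Passage 54 holds the lowest point of both lines for Tyrp1, Slc24a5, Hps3, Mlph and Mreg, and not for siDicer in Bloc1s6.

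Among the genes of pigment synthesis, Tyrp1 is the tyrosinase-related enzyme mutated in brown mice (transcript cluster TC0400000810.mm.1, chromosome 4). Its log2 signal at passages 47, 54 and 56 was 12.85, 12.68 and 12.90 in siDicer and 12.96, 12.77 and 12.84 in siScr. The groups overlapped, and all 6 arrays lay within 0.28 log2 units. The group means were 12.81 ± 0.11 and 12.86 ± 0.097 (SD, n = 3).

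Slc24a5 is the potassium-dependent sodium-calcium exchanger of the melanosome pathway, known from golden zebrafish (TC0200001874.mm.1, chromosome 2). Its log2 signal was 10.90, 10.27 and 10.61 in siDicer and 11.20, 10.50 and 10.85 in siScr at passages 47, 54 and 56. The siDicer array was the lower at each passage, yet the groups overlapped because the arrays of one group spread by 0.63 in siDicer and 0.70 in siScr. The group means were 10.59 ± 0.31 and 10.85 ± 0.35 (SD, n = 3).

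Of the genes that build the organelle, Hps3 encodes a subunit of the second BLOC complex and is mutated in cocoa mice (TC0300001701.mm.1, chromosome 3). In siDicer it was at log2 8.11, 7.71 and 8.04, and in siScr at 8.47, 7.88 and 8.26, at passages 47, 54 and 56. It shared the order of Slc24a5, with siDicer the lower at each passage and overlapping groups. The means were 7.95 ± 0.21 in siDicer and 8.20 ± 0.30 in siScr (SD, n = 3).

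Bloc1s6 encodes pallidin, a subunit of the first BLOC complex (TC0200001858.mm.1, chromosome 2). It was at log2 6.91, 6.97 and 6.86 in siDicer and at 6.92, 6.79 and 6.99 in siScr. The 6 arrays lay within 0.20 log2 units and the passages took a different order in each group. Means were 6.91 ± 0.054 in siDicer and 6.90 ± 0.10 in siScr (SD, n = 3).

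For the genes that move and hand on melanosomes, Mlph encodes melanophilin, the linker between Rab27a and myosin Va that is mutated in leaden mice (TC0100000882.mm.1, chromosome 1). Its signals were log2 10.24, 9.70 and 10.08 in siDicer and 10.28, 9.64 and 10.23 in siScr. Both arrays of passage 54 were below the other 4, whichever siRNA was given. The means were 10.01 ± 0.28 and 10.05 ± 0.36 (SD, n = 3).

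Mreg encodes melanoregulin, the dilute suppressor, which acts in melanosome distribution and shedding (TC0100002552.mm.1, chromosome 1). Signals were log2 6.78, 6.47 and 6.66 in siDicer and 6.71, 6.32 and 6.57 in siScr. It was the 1 gene of the 6 with the siDicer array higher at every passage, and its groups overlapped. The means were 6.64 ± 0.16 and 6.53 ± 0.20 (SD, n = 3).

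The first comparison asked whether these genes differed between cells given siDicer and cells given siScr. Fitted with limma over 5362 genes bright enough to test, 0 of the 6 genes passed an adjusted p of 0.05 for siDicer against siScr, where 0.0186% of all tested genes (1 gene) passed. At an unadjusted p under 0.05 the count was also 0 of 6, against 8.52% of tested genes. In 0 of the 6 did the groups fail to overlap, against 7.81% of tested genes not overlapping with siDicer lower and 6.68% with siDicer higher. Of the members 4 were lower and 2 higher in siDicer, where 54.5% of all tested genes were lower, with a median difference of -0.047 beside -0.0092 over all tested genes.

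The largest differences were those of Slc24a5 and Hps3, each at log2 -0.25, with standard errors of 0.20 and 0.16 (limma, adjusted p = 0.804 and 0.743). A difference of -0.25 is a 1.19-fold lower signal. The 95% intervals ran from -0.72 to 0.21 for Slc24a5 and from -0.62 to 0.12 for Hps3. Mreg differed by 0.11 ± 0.12 (SE) with an interval of -0.17 to 0.38, and Mlph by -0.045 ± 0.19 with an interval of -0.49 to 0.40. Tyrp1 differed by -0.049 ± 0.080, interval -0.23 to 0.14, and Bloc1s6 by 0.012 ± 0.074, interval -0.16 to 0.18 (limma, adjusted p from 0.875 to 0.987 for these 4). The intervals of Tyrp1 and Bloc1s6 thus leave room for a change of at most 0.23 in size, and that of Mlph for one of 0.49.

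Within passages the picture differed by gene. For Slc24a5 siDicer minus siScr was -0.30, -0.22 and -0.24 at passages 47, 54 and 56, and for Hps3 it was -0.36, -0.17 and -0.22. These 2 of 6 were lower in siDicer at all 3 passages, which 20% of tested genes also were. Mreg differed by 0.077, 0.15 and 0.090, the 1 of 6 that was higher at all 3, against 16.1% of tested genes. Tyrp1 differed by -0.11, -0.088 and 0.052, Mlph by -0.039, 0.060 and -0.16, and Bloc1s6 by -0.011, 0.18 and -0.13, so these 3 took both signs.

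With passage as a block the standard errors of Slc24a5, Hps3, Mlph and Mreg were smaller, at 0.067, 0.067, 0.072 and 0.058. Those of Tyrp1 and Bloc1s6 changed little, at 0.077 and 0.074. Slc24a5 (limma, unadjusted p = 0.00621) and Hps3 (unadjusted p = 0.00658) were then the 2 of 6 with an unadjusted p under 0.05, against 13.8% of tested genes. Neither passed after adjustment over all genes (limma, adjusted p = 0.140 and 0.142), so 0 of 6 passed where 1.73% of tested genes did. The blocked intervals were -0.41 to -0.097 for Slc24a5, -0.41 to -0.094 for Hps3 and -0.031 to 0.24 for Mreg. For Tyrp1, Mlph and Bloc1s6 they ran from -0.23 to 0.13, from -0.21 to 0.12 and from -0.16 to 0.19. When 1 array was left out without the block, the difference of Slc24a5 ranged from -0.43 without siScr replicate 2 to -0.078 without siScr replicate 1, and that of Hps3 from -0.41 to -0.12 with the same arrays left out.

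**Figure D2:**
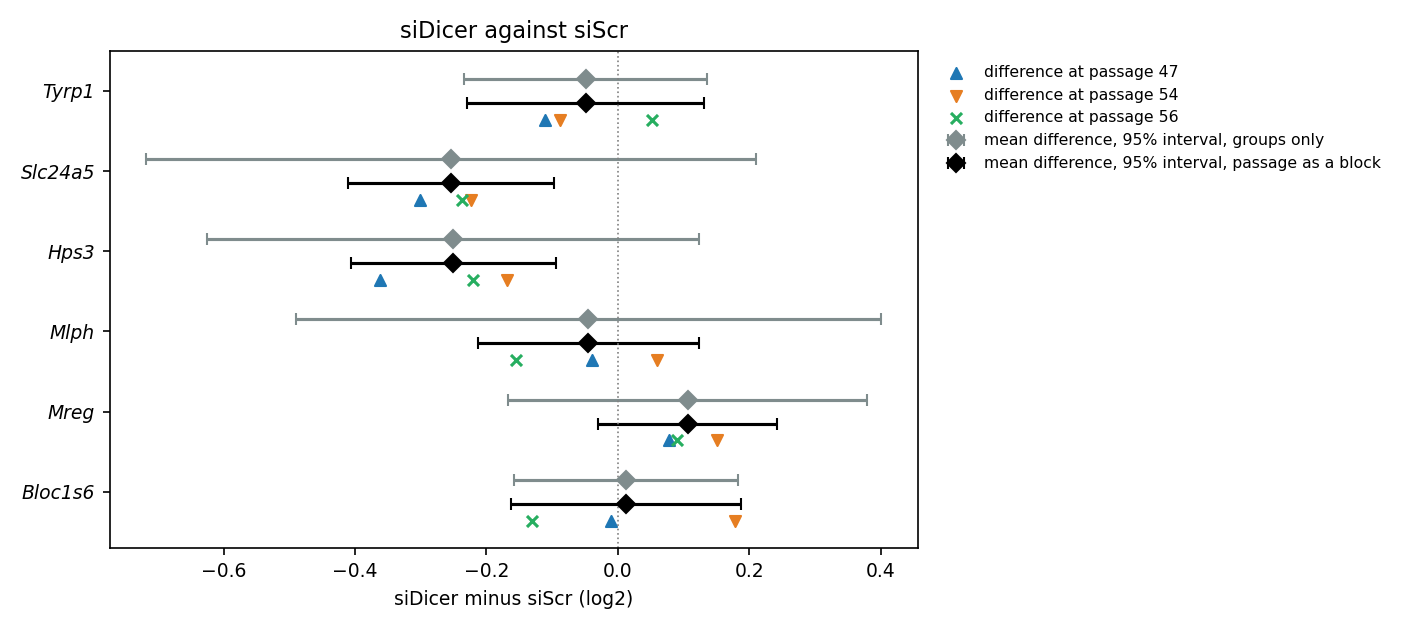
Difference of siDicer minus siScr in log2 (horizontal axis) for each gene, with diamonds for the mean, bars for the 95% interval without (grey) and with (black) passage as a block, and small symbols for the difference at each passage. The black bars of Slc24a5 and Hps3 lie below 0, although neither gene passed after adjustment over all tested genes.

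The second comparison asked whether the genes differed between passages, with the siRNA group as a term in the fit. Slc24a5, Hps3, Mlph and Mreg fell from passage 47 to passage 54, by 1.58-, 1.41-, 1.51- and 1.28-fold. These 4 of 6 passed for that contrast (limma, adjusted p = 0.0106, 0.0263, 0.0190 and 0.0472), where 1.51% of tested genes passed with the lower signal at passage 54 and 1.53% with the higher. In the F test over all 3 passages 2 of 6 passed, Slc24a5 (limma, adjusted p = 0.0244) and Mlph (adjusted p = 0.0366), against 1.85% of tested genes. Hps3 missed that threshold at an adjusted p of 0.0553 and Mreg at 0.102 (limma). Every passage had only 2 arrays, 1 of each group, and leaving out any one of the 4 arrays of passages 47 and 54 took the count for that contrast from 4 to 0 and that of the F test from 2 to 0. Leaving out either array of passage 56 kept the count of the contrast at 4 and gave 3 in the F test.

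The fall of Slc24a5 from passage 47 to 54 was log2 -0.66 ± 0.082 (SE, 95% interval -0.86 to -0.47), the 19th lowest of 5362 differences. In the siDicer arrays it was -0.63 and in the siScr arrays -0.70. For Mlph the fall was -0.59 ± 0.088 (interval -0.80 to -0.38), with -0.54 in siDicer and -0.64 in siScr. For Hps3 it was -0.50 ± 0.082 (interval -0.69 to -0.31), with -0.40 in siDicer and -0.59 in siScr. Mreg fell by 0.36 ± 0.071 on the log2 scale (interval -0.52 to -0.19), with -0.32 in siDicer and -0.39 in siScr. Each of these 4 falls was thus present in both pairs of arrays and larger in the siScr pair, a difference between the groups that has 1 array per passage and was not tested.

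Tyrp1 and Bloc1s6 did not pass for this contrast. Tyrp1 differed by -0.18 ± 0.094 (limma, adjusted p = 0.357), with -0.17 in siDicer and -0.19 in siScr, and an interval of -0.40 to 0.040. Bloc1s6 differed by -0.035 ± 0.091 (limma, adjusted p = 0.866), with 0.060 in siDicer and -0.13 in siScr, and an interval of -0.25 to 0.18.

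Passage 56 minus 54 was log2 0.48 ± 0.088 (SE) for Mlph, 0.36 ± 0.082 for Hps3, 0.34 ± 0.082 for Slc24a5 and 0.22 ± 0.071 for Mreg. In this contrast 0 of 6 passed, against 0.131% of tested genes with the higher signal at passage 56 (limma, adjusted p from 0.0601 for Mlph to 0.863 for Bloc1s6). Mlph passed there without siDicer replicate 3, after median centring and with the stricter filter on dim genes (limma, adjusted p = 0.0342, 0.0327 and 0.0312). This contrast shares the passage 54 arrays with the contrast above. Tyrp1 differed by 0.14 and Bloc1s6 by 0.047. Between passages 47 and 56 also 0 of 6 passed, against 0.0746% of tested genes in either direction, and the largest difference was that of Slc24a5 at -0.32 ± 0.082 (limma, adjusted p = 0.254). Hps3, Mreg, Mlph, Tyrp1 and Bloc1s6 differed there by -0.14, -0.13, -0.11, -0.039 and 0.012.

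**Figure D3:**
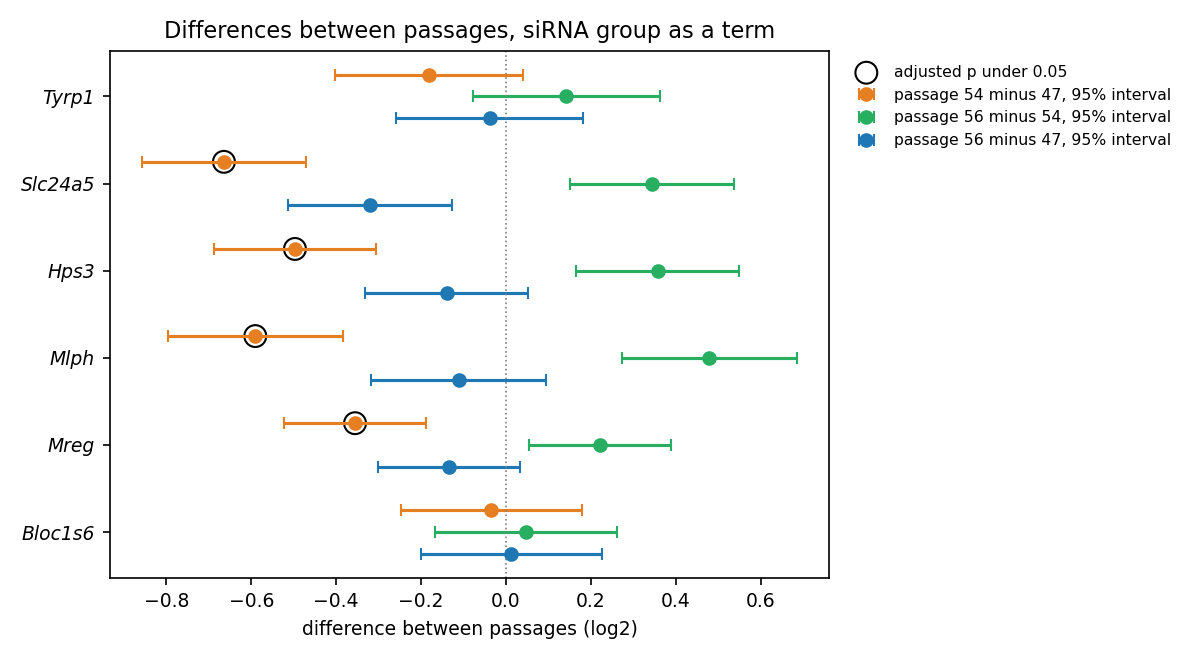
Differences between passages in log2 (horizontal axis) for each gene from the fit with the siRNA group as a term, with points for the estimate, bars for the 95% interval and rings where the adjusted p is under 0.05. The rings are all on passage 54 minus 47, for Slc24a5, Hps3, Mlph and Mreg.

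Tyrp1, Slc24a5, Hps3, Mlph and Mreg had their lowest signal at passage 54 in both groups, 5 of 6 members against 18% of tested genes. Slc24a5, Hps3, Mlph and Mreg had the order 47 over 56 over 54 in both groups, 4 of 6 against 6.21%. Both counts come from the same arrays as the contrasts above and were not tested. The members were chosen with earlier results of these data known. They are also not independent of one another, with r = 0.969 between Slc24a5 and Hps3 over the arrays. Passage accounted for 96.4% of the sum of squares of Mlph over the 6 arrays, 87.5% for Mreg, 81.8% for Slc24a5, 76.0% for Tyrp1, 71.6% for Hps3 and 8.85% for Bloc1s6, beside a median of 45.1% over tested genes. The siRNA accounted for 25.6% of it in Hps3, 17.9% in Slc24a5, 11.4% in Mreg, 7.55% in Tyrp1, 0.836% in Bloc1s6 and 0.744% in Mlph, beside a median of 15.1%. What neither explained was 90.3% in Bloc1s6 and 0.318% in Slc24a5.

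**Figure D4:**
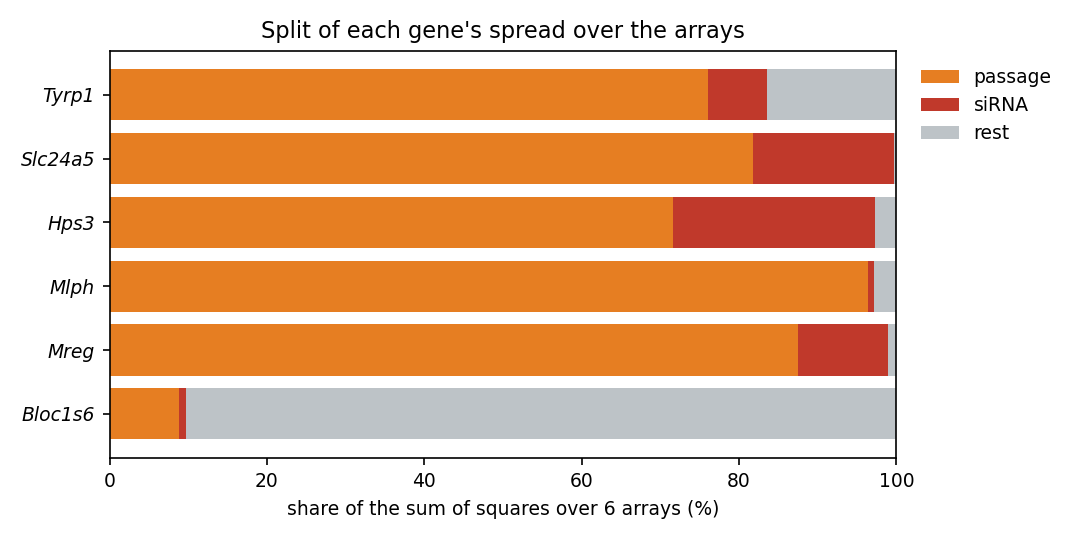
Share of the sum of squares over the 6 arrays (horizontal axis, %) that falls to passage (orange), siRNA (red) and the rest (grey) for each gene. Passage takes from 71.6% in Hps3 to 96.4% in Mlph in 5 genes and 8.85% in Bloc1s6, where the rest takes 90.3%.

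The wider pathways were followed through 3 lists. Of the 20 listed pigment enzymes, transporters and matrix proteins 4 were tested, of the 40 listed biogenesis genes 8, and of the 28 listed genes of melanosome transport 6. The 12 tested genes beyond the 6 members gave 0 calls for siDicer against siScr, with or without the block, 8 being lower and 4 higher with a median of -0.059, beside the 54.5% of all tested genes that were lower. At an unadjusted p under 0.05 they numbered 2 without the block, against 8.52% of tested genes, and 4 with it, against 13.8% (limma). Pikfyve, the lipid kinase of endosomes, differed by -0.28 ± 0.11 (SE, limma, adjusted p = 0.509), and at every passage the siDicer array was lower, by -0.40, -0.24 and -0.19. Cdc42, a small GTPase of the actin cytoskeleton, differed by -0.19 and the actin nucleator Fmn1 by -0.19, while Rab17, a GTPase linked to melanosome release, differed by 0.13. The cystine transporter Slc7a11 differed by -0.59 ± 0.27, with -1.39, -0.32 and -0.067 at the 3 passages. Atrn, also of the pigment list, differed by 0.015, and of the biogenesis list Vps16 differed by 0.085 and Snapin by -0.090.

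Between passages 47 and 54, 11 of these 12 genes were lower at passage 54 and 1, Cdc42, differed by 0.00014, where 45.3% of all tested genes were lower. The median difference was -0.19 beside 0.015 over all tested genes, and 0 of the 12 passed (limma). Slc7a11 differed most, by -0.47 ± 0.27 (SE, limma, adjusted p = 0.403). Fmn1 differed by -0.34 (limma, adjusted p = 0.0850), Stx12, a syntaxin of endosomes, by -0.28 and Vps39, of the HOPS tethering complex, by -0.25. Snapin, which shares the first BLOC complex with Bloc1s6, differed by -0.20. Passage 56 minus 54 was -0.046 for Slc7a11, 0.071 for Fmn1, 0.27 for Stx12, 0.17 for Vps39 and 0.084 for Snapin.

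Markers of other cell types had the opposite sign between these passages. All 9 tested markers of keratinocytes, fibroblasts, leukocytes and endothelial cells were higher at passage 54 than at 47, where 45.3% of all tested genes were lower. Their median was 0.13 beside 0.015 over all tested genes. Of the 9, 2 passed, where 1.53% of tested genes passed with the higher signal at passage 54. They were the collagen gene Col3a1 at 0.46 (limma, adjusted p = 0.0198) and the leukocyte gene Cd53 at 0.38 (limma, adjusted p = 0.0312). Passage 56 minus 54 was -0.40 for Col3a1 but -0.012 for Cd53, whose mean signal was log2 4.52. The summed signal of the 4 fibroblast markers with a value was log2 7.39 and 7.44 at passage 54 (siDicer and siScr) and 7.08 to 7.19 on the other 4 arrays. That of the 4 leukocyte markers was 5.81 and 5.91 at passage 54 and 5.66 to 5.89 elsewhere, that of the 7 keratinocyte markers 8.24 and 8.33 against 8.10 to 8.19, and that of the 3 endothelial markers 6.11 and 6.17 against 6.05 to 6.10. Of the 18 markers in these 4 lists, 9 had a mean signal below the limit for dim genes of log2 4.15, from 2.84 for the leukocyte gene Ptprc to 4.06 for the fibroblast gene Fap. The 9 that were tested ran from the T-cell gene Cd2, just above that limit, to the keratinocyte gene Flg at 6.90, with Col3a1 at 6.32, the keratinocyte gene Sfn at 5.77 and the endothelial gene Tie1 at 5.44 between them. Schwann cell markers had no value here. The array medians were also highest at passage 54, at 4.65 and 4.68 against 4.63 to 4.64, and the falls from passage 47 to 54 were -0.70 for Slc24a5 and -0.63 for Mlph after centring on the medians and -0.60 and -0.54 after quantile normalisation. The part of these shifts in the passage differences was not tested, and in bulk RNA fewer cells of a type and less RNA per cell cannot be told apart.

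**Figure D5:**
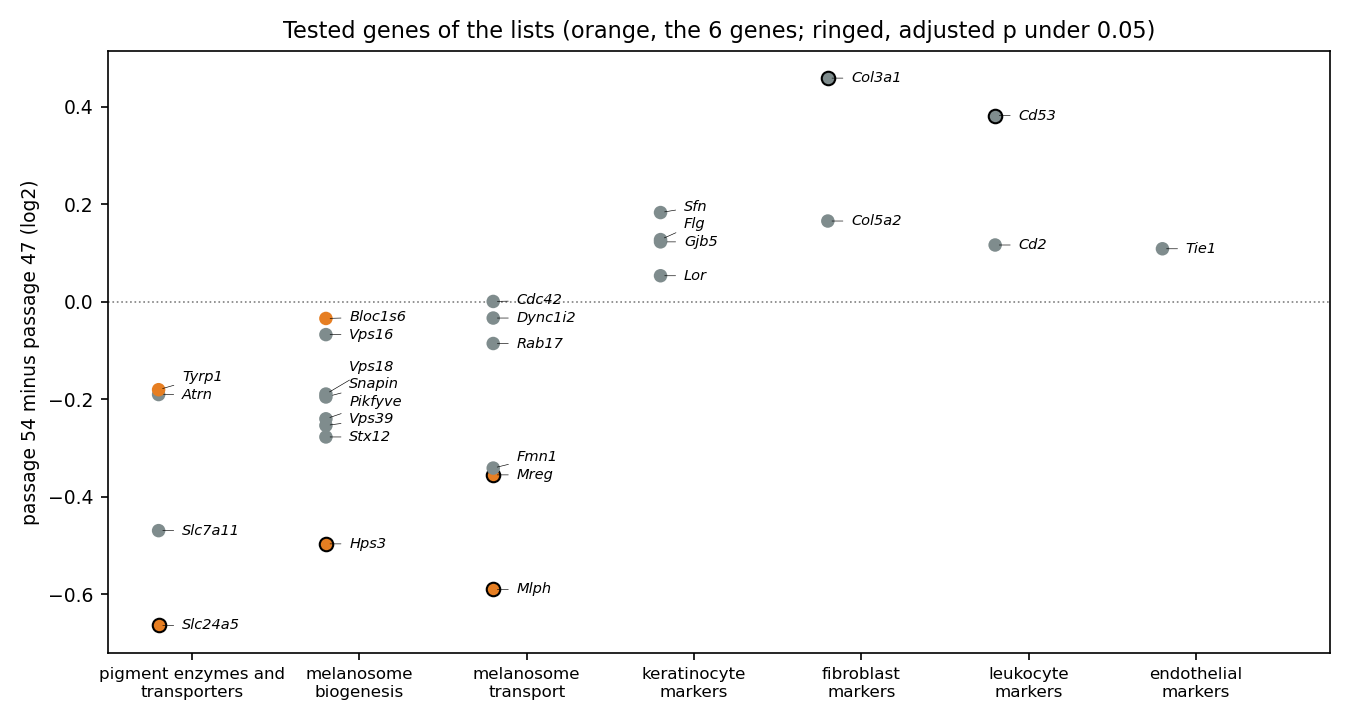
Passage 54 minus passage 47 in log2 (vertical axis) for each tested gene of the 3 pathway lists and 4 marker lists (horizontal axis), with the 6 genes in orange and rings where the adjusted p is under 0.05. Of the pathway genes all but Cdc42 lie below 0, and the 9 markers of other cell types lie above it.

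Of 13 listed melanocyte markers 3 had a value, Tyrp1, Slc24a5 and Mlph, and all were far above the limit for dim genes. Dicer1, Mitf, Tyr and other genes outside chromosomes 1 to 4 were not analysed here, so these data give no check of the knockdown. Array medians ran from 4.63 to 4.68, pairs of arrays correlated at 0.993 to 0.997, and each sample had an RNA integrity number of 10.0.

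By a fixed rule, the 3 genes whose log2 values over the 6 arrays correlated best with each member were found among 3484 tested genes. With n = 6 arrays that share 3 passages such values describe these arrays and carry no p. Mreg was most like Sort1, the sorting receptor sortilin (Pearson r = 0.998), then Elk4 and Megf9. Mlph was most like Nipal3 (r = 0.998), Abhd12 and Tmx2. Hps3 was most like Rab33b (r = 0.985), a Rab GTPase, followed by Prss12 and Mpzl1. Slc24a5 was most like Polr3k (r = 0.991), Pogk and Gstm6, and Tyrp1 like Pnisr (r = 0.989), Rev1 and Papss1. Bloc1s6 had the lowest best match, with Zfp408 (r = 0.954), Smim8 and Xkr8. A high r does not mean a change of like size. The matched genes spanned from 0.097 log2 units over the 6 arrays for Elk4 to 0.83 for Mpzl1. Their members Mreg and Hps3 spanned 0.47 and 0.76, and Polr3k and Pnisr spanned 0.17 and 0.14. Among the members themselves r was 0.969 for Slc24a5 and Hps3 and 0.883 for Mlph and Mreg, and for Bloc1s6 it ran from -0.067 with Tyrp1 to 0.415 with Mlph.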

How the data were processed

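RNA of 6 samples was measured on Affymetrix Clariom D mouse arrays from 100 ng of total RNA each, per the labels' protocols. The authors deposited log2 signals for transcript clusters on a common scale, and the submitters' processing notes name Affymetrix Expression Console. Summarisation, normalisation and genome build: not given in the sources used here. The range of the values, 1.70 to 13.70, gave the log2 scale. Scanner files were not used here, so background could not be varied, and the number of arrays limits the precision. Of 16383 clusters on chromosomes 1 to 4, 7716 carried 1 gene in the platform annotation, brought up to date through RefSeq, 269 several and 8398 none. The cluster with the highest mean stood for a gene, and genes under the 30th percentile of mean signal (log2 4.15) were left out, which left 5362, all 6 members among them.

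The groups were tested by lmFit and eBayes with a trend (limma 3.58.1, R 4.3.3), two-sided, with Benjamini-Hochberg adjustment over all tested genes. Passages were tested in a fit with the group as a term, by an F test and 3 pairwise contrasts. An exact permutation test of 3 against 3 arrays cannot go below p = 0.1. An interaction of siRNA and passage has no residual and was not tested. The fits were tested on simulated data. The members, lists and rules were chosen with earlier results of these data known. Named beside the members were list genes that passed, up to 4 a list by smallest p otherwise, and the 3 genes most alike to each. Stx12, Vps39, Col3a1, Cd53 and the markers given by level were named after their values were seen, as was the E-box search. Alternatives were other filters, scalings, weights, priors and cluster averages, passage as a block and arrays or passages left out.

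The labels give each replicate number 1 passage in both groups, so the numbers pair the samples. Deviations from the group means correlated at 0.417, 0.623 and 0.0702 over tested genes for replicates 1, 2 and 3. Pairs with unlike numbers ran from -0.538 to 0.285, the highest being siDicer replicate 1 with siScr replicate 3. The value of replicate 3 was thus not above those of all unlike pairs.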

Additional observations from a re-analysis of the deposited data

Results flagged for a closer look

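Of the members 3 had differences of siDicer minus siScr of opposite sign at different passages. With 1 array of each group per passage, whether the passages differ in this was not tested. Tyrp1 was at -0.11, -0.088 and 0.052 at passages 47, 54 and 56. Mlph was at -0.039, 0.060 and -0.16. Bloc1s6 was at -0.011, 0.18 and -0.13.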

How the results depend on the processing

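For siDicer against siScr, 0 of the 6 members passed in the 17 alternative settings run, and 0 genes of each pathway list in the 3 run for the lists (quantile normalisation, median centring and the replicate block). Over all tested genes the count of 1 became 14 with array weights, 93 with the replicate block (passage as a block), and 3, 19 and 153 with that block and passage 47, 54 or 56 left out. With 1 array left out it ran from 0 to 2. With array weights the difference of Slc24a5 was -0.39, that of Mlph -0.23, that of Tyrp1 -0.086, that of Mreg 0.020 and that of Bloc1s6, turned in sign, -0.019. The difference of Bloc1s6 also turned to -0.071 with the replicate block and passage 54 left out, and that of Mlph to 0.010 with the block and passage 56 left out. With 1 array left out Tyrp1 ran from -0.093 to 0.015, Mlph from -0.25 to 0.11, Mreg from -0.0012 to 0.19 and Bloc1s6 from -0.043 to 0.058.

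For the passages, the F test's count over all genes of 99 became 58 without a filter on dim genes, 172 with the stricter filter, 202 after median centring, 165 with array weights and 20 without the group term, and ran from 13 to 308 with 1 array left out. Members passing the F test were 1 without the filter and 0 without the group term, and 0 to 3 with 1 array left out. For passage 54 against 47 the member count was 1 without the group term (Mlph) and 0 to 4 with 1 array left out. It was 3 without the filter, where Mreg was at a limma adjusted p of 0.0716, and 4 under quantile normalisation, median centring, array weights, no trend, the stricter filter and averaged clusters. With 1 array left out, passage 54 minus 47 ran from -0.70 to -0.63 in Slc24a5, from -0.58 to -0.41 in Hps3, from -0.67 to -0.51 in Mlph and from -0.39 to -0.32 in Mreg, so the direction held where the calls were lost. It ran from -0.16 to 0.090 in Bloc1s6, whose passage 56 minus 54 ran from -0.078 to 0.17 and 56 minus 47 from -0.095 to 0.12. Tyrp1 ran from -0.11 to 0.037 for 56 minus 47. Leaving out an array leaves 1 passage in 1 group and fewer residual degrees of freedom. All-gene medians moved by under 0.1 between scalings.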

Other observations

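Of the 81 tested genes that passed with the lower signal at passage 54 than at 47, 62 had a promoter in the RefSeq table, and 10 of these (16.1%) held CACGTG or CATGTG in the 100 bases before a listed start. Among all tested genes 265 of 3409 did (7.77%). Slc24a5, Hps3 and Mlph are among the 10, and they led to the search, so the 2 shares are given as a description with no test.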
